A study of Allium mongolicum with 12 samples.

Results

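The comparison described here is that of roots after 48 h in a saline-alkali solution (T48, 3 libraries) with roots taken at 0 h (CK, 3 libraries). The plant is Allium mongolicum, a wild onion of dry Asian steppe, and RNA was measured by sequencing in 12 root libraries at 4 times. The features described were those with a mean abundance of at least 5 CPM over these 6 libraries, where CPM is the estimated count of a feature scaled to a common library total. This holds for 20378 of 98328 assembled transcript features, and the values on either side of that limit were 5.0002 and 4.9985 CPM. The described features took 92.3% to 93.3% of the counts in T48 and 93.8% to 94.2% in CK.

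T48 roots came from seedlings kept for 48 h in a mix of 4 sodium salts with a total salinity of 150 mmol/L, in which sulfate and bicarbonate made up 9 parts each and chloride and carbonate 1 part each. CK roots came from seedlings of the same raising that had not yet met the salts. All seedlings had grown for 45 days in potted soil and then for 7 days in diluted Hoagland solution, a standard mineral nutrient medium. The labels give 20 seedlings per group without stating which seedlings went into which library. The p-values therefore speak only of the spread from library to library, and part or all of that spread may be technical. No unstressed roots of 48 h are among the samples, so 48 h of salts and 48 h of elapsed time cannot be told apart. The labels name the whole root, and with feature IDs that carry no gene names its cell types could not be checked by markers.

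Carbonate salts harm roots in more ways than sodium chloride alone. Sodium enters root cells and competes with potassium, the salts lower the water potential outside the root, and the high pH keeps iron, phosphate and other nutrients out of solution and works against the proton gradient that drives uptake. Roots are known to answer with sodium export and storage in the vacuole, compatible solutes, acid secretion, antioxidant enzymes and changes in the cell wall. The study names phenylpropanoid metabolism, which supplies lignin, flavonoids and other phenolic compounds, as its subject. The files do not pair feature IDs with gene names, so none of these processes could be assigned to a feature here, and at most 2 IDs are given in each direction.

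Library totals were 23923456 to 24345026 estimated counts in T48 and 23099287 to 25688842 in CK. Over the described features, on log2(CPM + 0.5), T48 replicate 2 had correlations of 0.862 to 0.898 with the CK libraries and of 0.833 to 0.835 with the other T48 libraries. T48 replicates 1 and 3 had a correlation of 0.913 with each other and of 0.8 to 0.859 with the CK libraries, and the CK libraries had 0.88 to 0.911 among themselves. These are descriptions across features, which are not independent, and libraries also share the spread of levels between features. T48 replicate 2 was thus nearer to control roots than to the other 48 h roots, and results that rest on it are given with and without it. The biological coefficient of variation (the spread between libraries beyond counting, as a common value) was 41.3% in T48, 31.3% between T48 replicates 1 and 3, and 37.1% in CK. It was 8.15% in the 24 h libraries, which is why these were left out of the fit used here.

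Between 48 h and control roots, 4 of the 20378 described features passed the test, 3 of them higher and 1 lower in T48 (edgeR quasi-likelihood test on the 6 libraries, Benjamini-Hochberg adjusted p below 0.05). Over all 57993 features tested, the share called was 0.0069%, and all of the calls were among the described features. The 3 called higher had means of 0.046 to 0.086 CPM in CK, so they reached the limit of 5 CPM only through their T48 levels. The test itself did not use that limit. An unadjusted p below 0.05 was found for 15.1% of the 20299 described features that were tested and for 9.24% of all features tested. A fit on all 12 libraries, with a single spread for each feature, called 376 described features, 164 higher and 212 lower, and 0.691% of the 76273 features it tested, where the order turned to 288 higher and 239 lower. That fit takes part of its spread from the narrow 24 h libraries, so its p-values for CK and T48 may be too small. Leaving out T48 replicate 2 from the 6 libraries gave 2 calls, both lower and neither among the 4. That fit had 4952 described features at an unadjusted p below 0.05, against 3066 with all 6 libraries. Over all features tested these counts were 9287 of 65627 and 5356 of 57993. The called features that are named below had an edgeR adjusted p of 0.0726 each without T48 replicate 2. Leaving out any other of the 6 libraries gave 0 calls, with 1855 to 2469 described features at an unadjusted p below 0.05. Over all features, these fits had 3786 to 5842 at that level, with 63857 to 66437 tested.

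TRINITY_DN3671_c0_g1_i1_4 had the largest fitted log2 change among the features called, though not the largest ratio of summed counts. It had 22.46, 17.15 and 16.95 CPM in T48 replicates 1 to 3, against 0.17, 0.03 and 0.06 CPM in CK replicates 1 to 3. All T48 libraries, replicate 2 included, lay far above CK, where only 6 estimated counts were seen in all. The choice of named features required all T48 libraries to lie on one side of CK. Its summed count was 226-fold higher in T48 (95% exact counting interval 104 to 618), and the fitted log2 change was 7.64 with a standard error of 0.54 (edgeR adjusted p = 0.0386, higher in 3 of 3 T48 libraries). The interval covers counting error only, and the fitted change of a feature so near 0 in CK depends on the prior count that edgeR adds.

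TRINITY_DN21798_c0_g1_i1_2 also rose at 48 h. It had 9.55, 12.96 and 9.83 CPM in T48 replicates 1 to 3 and 0.07, 0.03 and 0.04 CPM in CK replicates 1 to 3, where 3 estimated counts were seen in all. T48 replicate 2 was the highest of the T48 libraries here. The summed count was 259-fold higher in T48 (95% exact counting interval 88.3 to 1258), with a fitted log2 change of 7.39, a standard error of 0.48 and an edgeR adjusted p of 0.0386. The remaining feature called higher, left without its ID, had 11.23, 11.86 and 7.13 CPM in T48 and 0.07, 0.03 and 0.04 CPM in CK, with a log2 change of 7.30 and an edgeR adjusted p of 0.0386.

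The 3 features called higher were not at their 48 h level at the other times, which the test did not use. TRINITY_DN3671_c0_g1_i1_4 had 3.39, 1.97 and 2.65 CPM at 24 h, and 0.08, 3.82 and 0.28 CPM in T72 replicates 1 to 3. TRINITY_DN21798_c0_g1_i1_2 had 3.34, 2.82 and 1.83 CPM at 24 h, and 0.03, 2.81 and 0.13 CPM in T72 replicates 1 to 3. In both, the 72 h libraries differed among themselves by more than 10-fold, with T72 replicate 2 near the 24 h libraries and T72 replicate 1 near the CK libraries.

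TRINITY_DN38212_c0_g1_i1_1 was the single feature called lower, and an abundant one. It had 93.16, 98.81 and 92.9 CPM in T48 replicates 1 to 3, against 481.2, 482.5 and 633.0 CPM in CK replicates 1 to 3. The T48 libraries lay within a few CPM of each other. They all lay below CK, as the choice of named features required. It averaged 94.96 ± 3.34 CPM in T48 and 532 ± 87.3 CPM in CK (SD, n = 3 each), and fell by 2.58 on the log2 scale (standard error 0.19, edgeR adjusted p = 0.0386). At 24 h it had 308.5, 290.5 and 283.8 CPM and at 72 h 212.6, 139.0 and 188.7 CPM, so every library of the other stress times lay between the T48 and the CK values.

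The feature next in line among those lower at 48 h, TRINITY_DN35902_c1_g2_i1_1, missed the threshold. It had 2.77, 3.77 and 3.61 CPM in T48 replicates 1 to 3 and 38.54, 35.07 and 21.51 CPM in CK replicates 1 to 3. There was no overlap, as the choice required. Its fitted log2 change was -3.32 with a standard error of 0.3 (edgeR adjusted p = 0.071), and the fit on all 12 libraries gave an edgeR adjusted p of 0.00976 (range over all alternatives 4.15e-19 with DESeq2 to 0.471 with a replicate block). At 72 h it had 14, 12.1 and 34.88 CPM, the last value within the CK range.

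**Figure D1:**
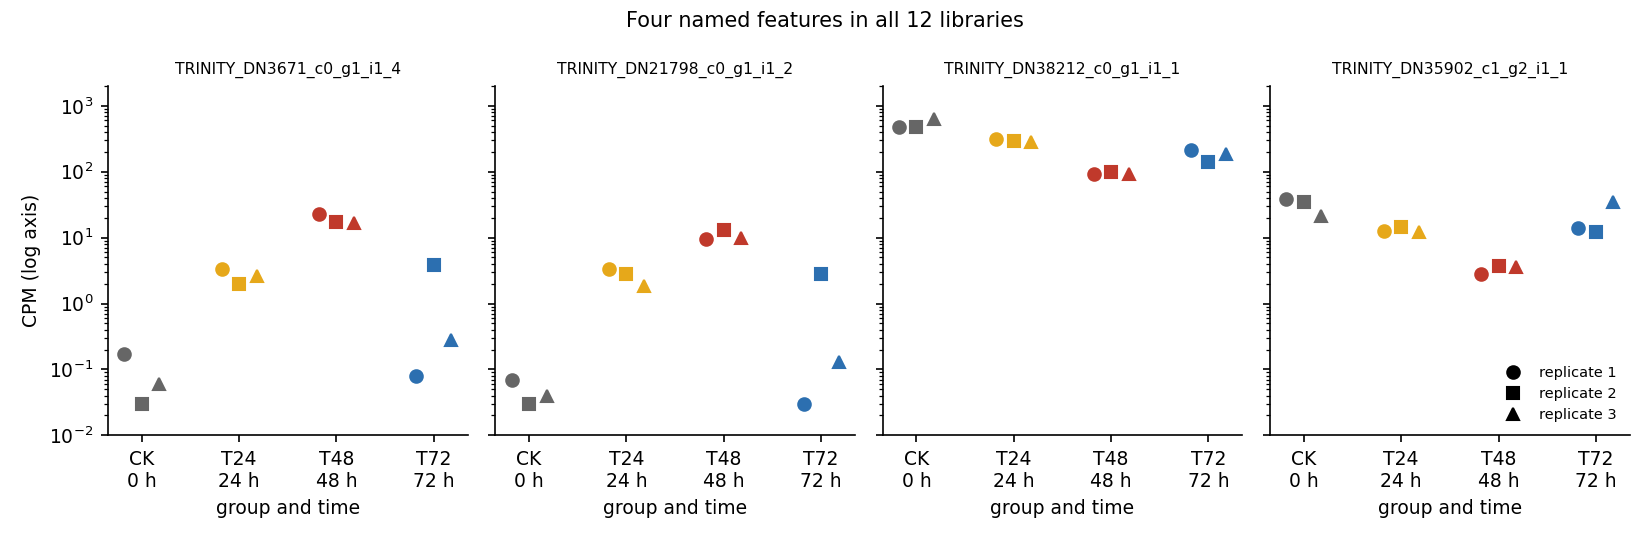
CPM (vertical, log axis) of 4 features in each of the 12 libraries by group and time, with a marker shape per replicate. T48 replicate 2 (red square) lies beside the other T48 libraries in every panel, which the choice of features with the groups apart favours. For TRINITY_DN3671_c0_g1_i1_4 it lies at 17.15 CPM, beside 22.46 and 16.95 CPM. The 72 h libraries of the first 2 features are spread apart.

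Most described features had small fitted changes. Over the 10581 features of 5 to 20 CPM the fitted log2 change had a median of -0.02 (5th to 95th percentile -1 to 1.17), over the 7893 of 20 to 100 CPM a median of -0.11 (-0.90 to 0.68), and over the 1904 of 100 CPM or more a median of -0.13 (-1.05 to 0.52). Without a test, 2286 described features had all 3 T48 libraries above all 3 CK libraries and 2083 had them below. Without T48 replicate 2 these counts were 5071 and 4164. With 1 library fewer the groups are more easily apart. The counts were 2854 and 2709 without T48 replicate 1, and 2870 and 2806 without T48 replicate 3. With all 6 libraries the shares were 11.2% and 10.2% of the described features and 10.4% and 5.99% of all features tested. The balance of higher and lower depended on the scaling, since TMM factors gave 1696 higher and 2863 lower. The fitted median of the described features was -0.07 with TMM and 0.03 with library totals alone. A gap of at least 2-fold between the nearest T48 and CK libraries was left in 75 features that were higher (0.368%) and 39 that were lower (0.191%). Over all features tested the shares were 0.771% and 0.131% (447 and 76 features), with higher features in a larger excess.

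Those 114 features are the changes of this size that all 3 T48 libraries had in common. T48 replicates 1 and 3 alone were both at least 2-fold above every CK library in 438 described features and at least 2-fold below in 342. With TMM scaling these counts were 339 and 462, so their order turned. Over all features tested the shares were 2.89% and 0.924%, and the described features gave 2.15% and 1.68%. Of the 438, T48 replicate 2 was also at least 2-fold above CK in 75 (17.1%), above CK by less in 172, within the CK range in 147 and below every CK library in 44. Without CK replicate 2 it was at least 2-fold above CK in 275 of 757 (36.3%). Of the 342, it was at least 2-fold below CK in 39 (11.4%), below by less in 136, within the CK range in 128 and above every CK library in 39. Without CK replicate 3 it was at least 2-fold below CK in 84 of 459 (18.3%). Over all features tested T48 replicate 2 was at least 2-fold beyond CK in 447 of 1676 higher features (26.7%) and in 76 of 536 lower ones (14.2%), larger shares than among the described features. T48 replicate 2 was thus on the same side as its group in 247 of the 438 and 175 of the 342.

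The same count made around the other T48 libraries came out differently. T48 replicates 2 and 3 were both at least 2-fold above CK in 98 features, and T48 replicate 1 joined them in 75 (76.5%). T48 replicates 1 and 2 were so in 95, and T48 replicate 3 joined them in 75 (78.9%). For features at least 2-fold below CK the corresponding counts were 39 of 60 for T48 replicate 1 and 39 of 61 for T48 replicate 3. The 75 and the 39 are the same features in every version of the count. The shares therefore differ only through the sizes of the pair sets and are not separate observations. In the 438 higher features the median change of T48 replicate 2 was 0.61 on the log2 scale, where the mean of T48 replicates 1 and 3 had a median of 2.14. In the 342 lower features these medians were -0.33 and -2.01. Taken feature by feature, T48 replicate 2 reached a median of 29.4% of the log2 change of the other pair in the higher features (quartiles -3.44% and 56.8%) and 15.9% in the lower ones (0.34% and 36.6%). All of these values are measured against the same CK libraries and were chosen by them, so they describe the libraries and carry no test.

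T48 replicate 2 also had changes of its own. It lay at least 2-fold above every CK library in 274 described features, of which 156 were shared by neither of the other T48 libraries at that size, 43 by 1 of them and 75 by both. It lay at least 2-fold below every CK library in 212, of which 130 were shared by neither, 43 by 1 and 39 by both. Such changes were not particular to it. T48 replicate 1 had 748 such features above and 765 below, of which 290 and 401 were shared by neither other T48 library. T48 replicate 3 had 763 and 662, of which 302 and 299 were shared by neither. As shares of each set, these were 38.8% and 52.4% in T48 replicate 1 and 39.6% and 45.2% in T48 replicate 3. In T48 replicate 2 they were 56.9% and 61.3%. Single CK libraries lay at least 2-fold above both other CK libraries in 386 to 484 features and below both in 193 to 700. The counts of T48 replicate 2 against 3 CK libraries were therefore no larger than most of those of a CK library against the 2 others. Lying beyond 2 libraries is easier than lying beyond 3, which raises the counts of the CK libraries, so the comparison is a rough one. In 2 features T48 replicate 2 was at least 2-fold above CK while both other T48 libraries were at least 2-fold below, and in 2 the reverse held.

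The 75 features higher in all T48 libraries were mostly of modest abundance. Their median level was 21.4, 17.2 and 23.7 CPM in T48 replicates 1 to 3, against 3.35, 3.38 and 2.65 CPM in CK replicates 1 to 3. Together they took 3853, 3853 and 3993 CPM in T48 and 986, 817 and 735 CPM in CK. The total of the set was therefore nearly the same in T48 replicate 2 as in the others. At 24 h, a time the choice did not use, their median log2 differences from the CK mean were 1.28, 1.37 and 1.36, and at 72 h 0.90, 1.41 and 1.35, against 2.35, 1.96 and 2.52 at 48 h. The medians of both other times were positive and below those of 48 h. The choice set these features low in CK and high in all T48 libraries, which favours this order. All times share the CK libraries, so the distances at 24 h and 72 h are no separate support.

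The 39 features lower in all T48 libraries had median levels of 6.67, 6.30 and 4.19 CPM in T48 replicates 1 to 3, against 26.7, 26.2 and 24.3 CPM in CK replicates 1 to 3. Together they took 926, 1164 and 766 CPM in T48 and 3916, 4441 and 3971 CPM in CK. Their median log2 differences from the CK mean were -0.95, -1.05 and -1.03 at 24 h, -2.13, -1.85 and -2.49 at 48 h, and -1.26, -1.20 and -1.10 at 72 h. As in the higher set, the 48 h libraries lay farthest from CK, which the choice at 48 h favours. The choice used the CK libraries as well, so the distances at 24 h and 72 h are no separate support.

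In the 363 higher features that T48 replicate 2 did not share at 2-fold size, the 72 h libraries were spread apart. Their median log2 differences from the CK mean were 1.27, 1.32 and 1.34 at 24 h, 1.97, 0.35 and 2.12 in T48 replicates 1 to 3, and 0.36, 0.56 and 1.51 in T72 replicates 1 to 3. Of the libraries that the choice did not use, T72 replicates 1 and 2 had medians nearer to 0 than the 24 h libraries, and T72 replicate 3 had the highest. In the 303 lower features not shared, the medians were -1.25, -1.29 and -1.23 at 24 h, -1.95, -0.27 and -1.95 in T48 replicates 1 to 3, and -1.33, -1.43 and -1.72 at 72 h. The choice fixed T48 replicates 1 and 3 at least 2-fold beyond CK in both of these sets, and T48 replicate 2 short of that. The 24 h and 72 h libraries, which the choice did not use, all had medians of -1.23 or lower in the lower set. In both sets the medians are differences from the CK mean, and the choice did use the CK libraries. Their distance from 0 is therefore no separate support for a change at 24 h or 72 h. Of these lower features 20.1% had 100 CPM or more, against 2.75% of the 363 higher ones and 9.34% of all described features. These levels are means over the 6 libraries. The choice made the lower features high in all CK libraries and the higher ones high in T48 replicates 1 and 3, so part of this difference can come from the choice.

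**Figure D2:**
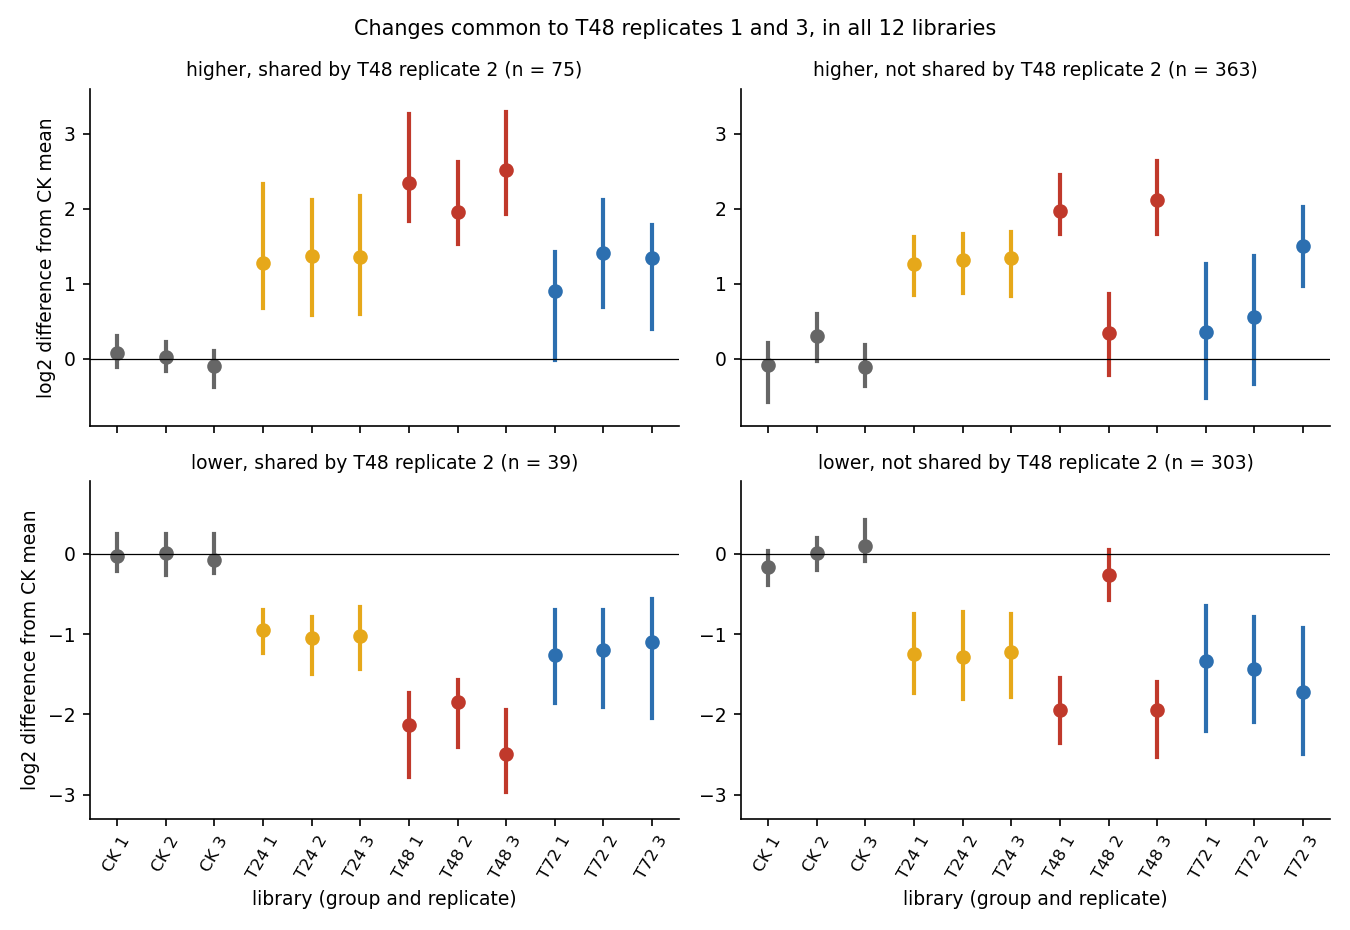
Median (point) and quartiles (bar) of the log2 difference from the CK mean, over the features of each set, in each of the 12 libraries. T48 replicate 2 lies at 1.96 and -1.85 in the shared sets (left) and at 0.35 and -0.27 in the sets it did not share (right), where T48 replicates 1 and 3 lie at 1.97 and 2.12 and at -1.95. The choice fixed T48 replicate 2 at least 2-fold beyond CK in the shared sets and short of that in the others.

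A few very abundant features made up 61.8% to 63.4% of the T48 counts in the higher set that T48 replicate 2 did not share. The 363 features took 36188, 13504 and 39897 CPM in T48 replicates 1 to 3, against 12376, 5800 and 9654 CPM in CK replicates 1 to 3. The 5 most abundant of them, picked after their values were seen, took 22449, 8348 and 25311 CPM in T48 and 8862, 1753 and 6356 CPM in CK, where their share of the set was 30.2% to 71.6%. T48 replicate 2 lay within the range of the CK libraries for this sum, and CK replicate 2 lay far below the other controls. At 24 h the sum was 5857, 6214 and 6205 CPM and at 72 h 12814, 28303 and 12759 CPM. The 5 kept nearly fixed proportions in all 12 libraries, the first of them taking 38.5% to 41.5% of the sum and the fifth 4.74% to 5.83%. None of the 5 passed the test, with edgeR adjusted p-values of 0.426 to 0.526. Features with near-identical sequence could share reads in this way, which was not tested since no sequences were used.

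The set of 303 lower features held 8717, 26881 and 8545 CPM in T48 replicates 1 to 3 and 28805, 32680 and 39827 CPM in CK replicates 1 to 3. In T48 replicates 1 and 3 these features took under 1% of the library (0.872% and 0.854%), against 2.69% in T48 replicate 2 and 2.88% to 3.98% in CK. The choice fixed the low place of T48 replicates 1 and 3, but not the order of T48 replicate 2 and CK. The median level of a feature of this set was 9.97, 40.6 and 9.61 CPM in T48 and 41.6, 42.8 and 54.4 CPM in CK.

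The last digit of a feature ID, its suffix, runs from 1 to 4 without explanation in the file, and its shares differed between the sets above. A feature with at least 50 counts in 1 library and at most 3 in each of the 11 others is counted here as private to that library. T48 replicate 1 had 546 private features and T48 replicate 2 had 495, against 20 in T48 replicate 3, 16 to 56 in the CK libraries, 0 in the 24 h libraries and 12 to 78 in the 72 h libraries. All 546 of T48 replicate 1 carried suffix 4, all 495 of T48 replicate 2 carried suffix 2, and in each of the other 7 libraries with private features a single suffix was seen as well. Suffix 4 was that of T48 replicates 1 and 3 and CK replicate 1, and suffix 2 that of T48 replicate 2 and CK replicate 2. Suffix 4 was carried by 42.7% of the 75 shared higher features and by 40.5% of the 363 not shared, against 25.9% of all described features. Among the 303 lower features not shared, suffixes 2 and 3 were carried by 31.4% and 31.0%, against 24.3% and 23.7% of all described features. Among the 39 shared lower features suffix 4 was near the share of all described ones, at 25.6%, and suffix 2 was carried by 10.3%. Whether the suffix marks separate assemblies of different libraries, and what part it has in these results, was not tested.

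Private features were a small part of the described ones but a visible part of 2 libraries. They took 3230 CPM of T48 replicate 1 and 4627 CPM of T48 replicate 2, against 89 CPM of T48 replicate 3 and 67 to 205 CPM of the CK libraries. Of the described features, 24 were private to T48 replicate 2 and 6 to T48 replicate 1. In all, 45 described features had at most 3 counts in every CK library, and of these 33 reached 50 counts only in T48 replicate 2 among the T48 libraries, 7 only in T48 replicate 1, and 4 in all 3. Of these 45 features, 40 thus reached 50 counts in a single T48 library, and their high 48 h mean is that library's level. Over the whole table, 1263 features had at most 3 counts in every CK library and a T48 mean of at least 1 CPM. Of those, 1075 reached 50 counts in a single T48 library, so this was not particular to the described features.

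Counted over the whole table, 51 features reached 50 counts in each T48 library and stayed at 3 or fewer in each CK library. The converse kind had 0. A count of 3 corresponded to 0.123 to 0.125 CPM in T48 and 0.117 to 0.13 CPM in CK. The 51 features summed to 246, 342 and 199 CPM in T48 replicates 1 to 3, against 1.8, 0.8 and 1.1 CPM in CK replicates 1 to 3, which their choice fixed. Of the 3 features called higher, 2 are among them, and TRINITY_DN3671_c0_g1_i1_4 missed the list by 1 CK library with 4.1 counts. All 51 carried suffix 2 or 4 (22 and 29). The times not used in the choice differed from each other: the sum was 60.3, 40.5 and 34.0 CPM at 24 h and 0.6, 51.7 and 3.9 CPM in T72 replicates 1 to 3. In every one of the 51 the highest 72 h library was T72 replicate 2. Of the 51, 1, 51 and 13 exceeded 3 counts in T72 replicates 1 to 3, and 46 did so in all 24 h libraries. Whether these transcripts come from the plant was not tested.

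**Figure D3:**
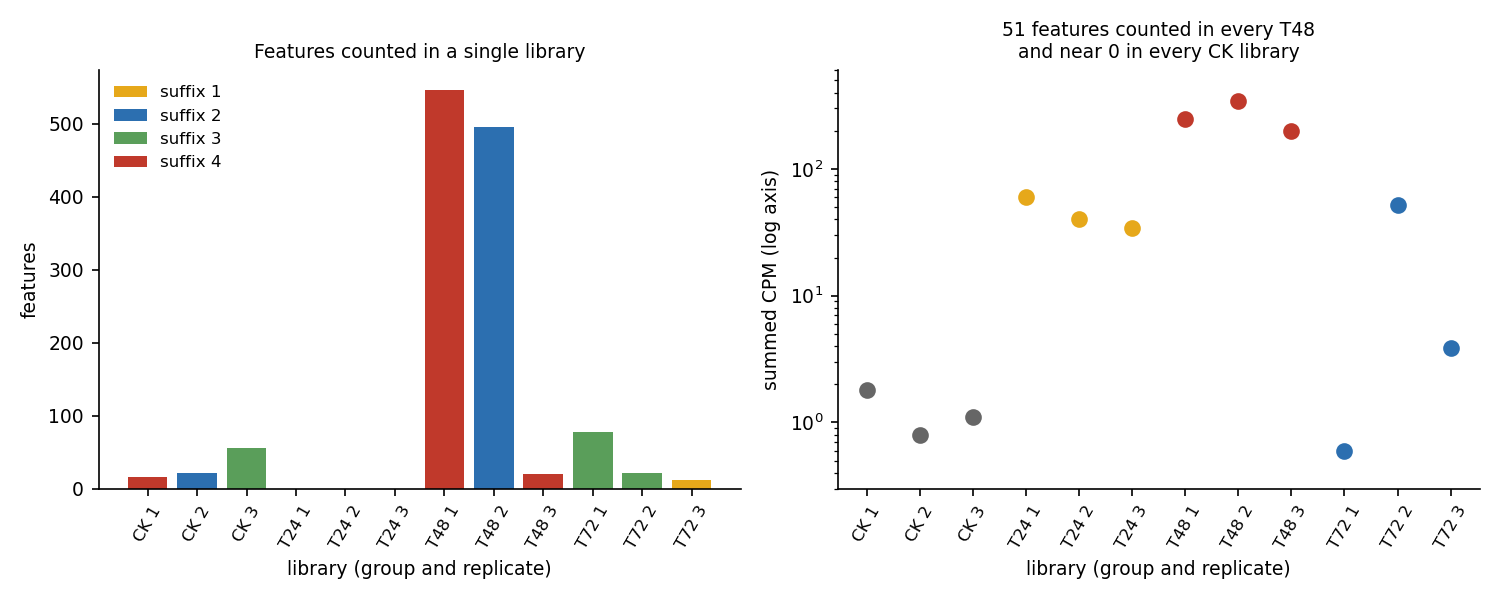
Left, number of features with at least 50 counts in 1 library and at most 3 in each of the 11 others, by library and by the suffix of the feature ID. Right, summed CPM (log axis) of 51 features with 50 counts or more in every T48 and 3 or fewer in every CK library, where T72 replicate 2 lies at 51.7 CPM and the other 72 h libraries at 0.6 and 3.9 CPM.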

How the data were processed

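RNA of 12 root libraries was sequenced. The submitters' processing notes name Trimmomatic, a read trimmer. For assembly, alignment and counting, the tools were not given in the sources used here. Values in the deposited table are the authors' estimated counts and were rounded, as they are not whole. The 6 T48 and CK libraries were fitted over the whole table: filterByExpr kept 57993 features (79 of the described ones were not kept), with TMM factors, edgeR 4.0.16 glmQLFit and glmQLFTest in R 4.3.3 and Benjamini-Hochberg adjustment over all features tested. Standard errors were taken as the log2 change over the root of the F value. The function was also run on simulated counts with a common spread for all features and no outlying library. That run does not show how the fit performs on these data. Levels are CPM by library totals, and gaps were taken on log2(CPM + 0.5), whose pseudocount lowers the gaps of faint features. Members and lists were chosen with earlier results of these data known. Named features were the largest changes among described features called with the groups apart, at most 2 each way, with an empty place filled by the smallest unadjusted p. The earlier fit on all 12 libraries became an alternative because the 24 h libraries vary far less than the others. Other alternatives were DESeq2 1.42.0, limma 3.58.1, other scalings and filters, a replicate block and leaving out each library. Columns left unassigned numbered 0. Estimated counts may rest on fewer reads than their size, so intervals and floors cover counting error only.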

Additional observations from a re-analysis of the deposited data

Results flagged for a closer look

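The 51 features counted in every T48 library and near 0 in every CK library (summed at 0.8 to 1.8 CPM there) also gave a signal in libraries that the comparison of T48 with CK does not use. Their summed level was 60.3, 40.5 and 34.0 CPM in T24 replicates 1 to 3, 51.7 CPM in T72 replicate 2 and 3.9 CPM in T72 replicate 3. The choice of the features fixed the low CK sums, so a comparison of these libraries with CK carries no test. In T72 replicate 1 it was 0.6 CPM. The cause was not tested.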

How the results depend on the processing

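The 4 calls were also 4 with RLE size factors and with no low-count filter, and 5 with library totals only. They were 7 over only the features of 5 CPM or more, 1 with the T72 libraries added, 18 with limma and a variance per group (13 higher and 5 lower, against 57 and 5 over all 57993 features tested), 783 with DESeq2 (327 and 456, against 1006 and 750 over all 71920) and 376 with all 12 libraries, and 0 with a minimum log2 change of 1, where 408 described features had an unadjusted p below 0.05. Over all features tested with that minimum, 1511 had an unadjusted p below 0.05. Leaving out 1 library gave 0 to 2. Chosen after seeing the data, all 12 libraries without T48 replicate 2 gave 2276 (663 higher and 1613 lower). Over all 82262 features tested, that fit called 2985, with a less uneven 1179 higher and 1806 lower. Chosen in the same way, all 12 libraries with only features of 5 CPM or more gave 1348 of 20378 tested. With a replicate block 0 were called, with 2837 described features at an unadjusted p below 0.05 and 4457 over all features tested. Same-numbered libraries had deviations correlated at 0.156, 0.007 and -0.064, so the numbers are not taken as pairs. Counts per assembled gene were not run, since no assembled gene holds more than 1 feature.

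Of the changes common to T48 replicates 1 and 3, T48 replicate 2 shared 280 of 1378 higher and 67 of 499 lower features at a mean of 1 CPM or more, 27 of 124 and 16 of 214 at 20 CPM or more, and 231 of 1005 and 155 of 887 at 1.5-fold. Leaving out 1 CK library gave 123 to 275 higher and 73 to 91 lower, the largest without CK replicate 2 (275 of 757, 36.3%) and CK replicate 1 (91 of 657), and the largest lower share without CK replicate 3 (18.3%). Features with the groups apart numbered 4314 higher at 1 CPM or more, and 1096 higher and 1309 lower at 20 CPM or more. Leaving out 1 library gave 2854 to 5071 higher and 2709 to 4164 lower, the largest without T48 replicate 2, and 3598 higher without CK replicate 1. The cause of these shifts was not tested. Every named feature kept its direction in all 18 alternatives. The 2 named higher features lost their call in 9 each and TRINITY_DN38212_c0_g1_i1_1 in 8, while TRINITY_DN35902_c1_g2_i1_1 passed in 5. At this depth and spread, a feature that missed the threshold is not shown to be unchanged.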
